A study of Homo sapiens with 72 samples.

Results

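The collagen genes of U2OS cells were followed through population RNA-seq of 72 wells treated with 6 compounds or vehicle. The members are the protein-coding genes whose GENCODE symbol is COL, a number, A and a number, matched by Ensembl gene identifier, and 44 of the 60371 listed genes fit this rule, among 19550 that GENCODE gives as protein coding. U2OS is an established human osteosarcoma cell line, the only line studied. Each well held a population of these cells for 12 h in the presence of DMSO alone, which was the vehicle of 18 wells, or of a compound at 100, 1000 or 10000 nM, with 3 wells for each combination. The compounds were triptolide, an inhibitor of transcription, homoharringtonine, an inhibitor of translation, nilotinib, a kinase inhibitor used in leukemia, pyrazolanthrone, an inhibitor of the JNK kinases, MK-2206, an inhibitor of the AKT kinases, and miglitol, an inhibitor of intestinal glucosidases. The labels carry compound codes, which the study's own compound list pairs with these names.

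Collagens are the main structural proteins of the extracellular matrix. A collagen chain carries glycine at a fixed interval along its helical stretch, chains wind around each other into a helix inside the cell, and the assembled molecules are secreted, trimmed and cross-linked. Fibrillar collagens form the cables of bone, skin and tendon, and bone-forming cells are known for large amounts of type I collagen, which is normally built from the products of COL1A1 and COL1A2. Type IV collagens form the mesh of basement membranes, type VI collagens form beaded filaments around cells, and the fibril-associated collagens sit on the surface of fibrils.

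The repeat that defines these proteins was visible in the reference coding sequences of the 44 genes. Glycine codons made up a median of 24.35% of their codons, against 6.33% over all 19550 protein-coding genes. Of their 2001 coding exons, 61.9% had a length that is a multiple of 9 bases, the length that codes for 1 repeat, against 13.8% of the coding exons of other genes, and 474 exons were exactly 54 bases long. The next lines show 54 bases of coding sequence of 4 members that moved in different ways below, read from GENCODE transcripts on GRCh38. The glycine codons of the repeat are in capitals. COL5A1 is shown from codon 559 to codon 576, COL4A2 from codon 782 to codon 799, COL26A1 from codon 199 to codon 216 and COL28A1 from codon 277 to codon 294.
COL5A1: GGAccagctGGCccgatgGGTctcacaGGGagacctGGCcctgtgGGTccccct
COL4A2: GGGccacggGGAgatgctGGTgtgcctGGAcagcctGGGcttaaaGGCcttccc
COL26A1: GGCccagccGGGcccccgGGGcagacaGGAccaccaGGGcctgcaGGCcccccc
COL28A1: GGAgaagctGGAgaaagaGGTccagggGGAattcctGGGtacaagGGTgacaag
In all 4 genes the stretch held 6 glycine codons at a constant spacing. That of COL28A1 held another glycine codon between them, left in lowercase (ggg). The longest unbroken run of this spacing was 338 repeats in COL5A1, 66 in COL4A2, 28 in COL28A1 and 23 in COL26A1.

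The wells differed widely in depth. The sum of expected counts ranged from 70767 to 68296309 with a median of 38.4 mil. Of the libraries, 3 stood apart with under 10 mil: triptolide 100 nM replicate 2 (70767), DMSO replicate 10 (460014) and triptolide 1000 nM replicate 1 (9628355). Scarce genes are the most exposed to this, since few of their transcripts were counted in such a library. Markers fitted a mesenchymal line in part. In DMSO wells VIM stood at 1840 TPM (transcript abundance scaled for length and library) and RUNX2 at 3.91, while SP7 (0.0122) and IBSP (0.00444), markers of bone-forming cells, were close to 0. Other markers of that lineage were SPP1 at 11.2, ALPL at 4.08 and BGLAP at 0.461. The cartilage markers SOX9 (19.2), ACAN (13.6) and MATN3 (9.39) were all detected, of the epithelial markers EPCAM (2.35) was above 1, and the endothelial and blood markers lay between 0.000556 and 0.194. Wells are populations, so fewer cells and less RNA per cell cannot be told apart.

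Collagen mRNA of DMSO wells came mostly from a few genes. TPM, which divides by transcript length, was used to compare genes. COL1A1 (ENSG00000108821, chromosome 17 from 50184101 to 50201632), the main chain of type I collagen, was the highest at 456 TPM ± 80.4 (SD, n = 18), and its wells lay between 338 and 620. It was followed by COL4A2 at 269 ± 62.6 and COL6A2 at 221 ± 48.9, whose ranges over wells overlapped. COL6A1 (177 ± 22.8), COL12A1 (136 ± 21.8) and COL6A3 (104 ± 13.7) completed the genes above 100 TPM, and the ranges of neighbors in this order overlapped. These 6 genes held 83.2% of the collagen TPM.

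The next 6 genes lay between 10 and 100 TPM. COL4A1, the partner of COL4A2 in basement membranes, stood at 88.0 TPM, COL5A1 and COL5A2, the chains of type V collagen that regulate fibril diameter, at 35.7 and 20, COL8A1, a short-chain collagen of vessels and cornea, at 25.1, COL13A1, a collagen that spans the cell membrane, at 22.9, and the fibril-associated COL22A1 at 17.1. Another 10 members lay between 1 and 10 TPM: COL11A1 (9.84), COL16A1 (8.92), COL7A1 (8.57), COL3A1 (8.18), COL9A2 (7.57), COL17A1 (6.47), COL5A3 (5.85), COL27A1 (4.09), COL18A1 (3.38) and COL4A5 (2.30). Neighbors in the order again overlapped over wells, except COL4A1, whose lowest well (67.0) was above the highest of COL5A1 (60.1). The remaining 22 members were under 1 TPM, 12 of them under 0.1.

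The partner of the most abundant collagen was nearly missing. COL1A2 (ENSG00000164692, chromosome 7 from 94394895 to 94431227) stood at 0.0889 TPM ± 0.064 (SD, n = 18) with a median of 5.5 counts per well, so the line had COL1A1 mRNA at a level far above that of the gene whose product normally joins it. By structural class, the 11 fibrillar collagens summed to 541 TPM and the 6 of the beaded filament class (type VI and COL28A1) to 502. The 6 of type IV summed to 360 and the 10 fibril-associated ones to 171. Transmembrane (29.4), short-chain (25.8), anchoring fibril (8.57) and multiplexin collagens (3.55) and COL26A1 (0.487) made up the rest.

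**Figure D1:**
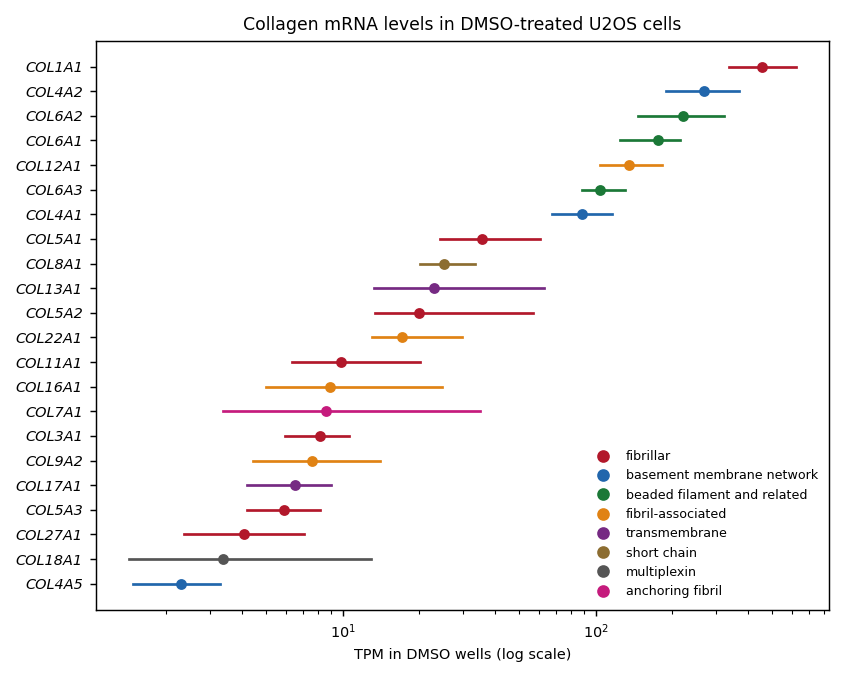
Level of the 22 collagen genes with at least 1 TPM in the 18 DMSO wells, in TPM on a log axis, ordered by level, with a point for the mean, a line from the lowest to the highest well and a color for each structural class. COL1A1 is highest at a mean of 456 TPM, and its partner COL1A2, at 0.0889 TPM, is below the levels shown.

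Triptolide was compared with DMSO to see what the collagen genes did when transcription was inhibited. The summed TPM of all collagens was 1643 ± 296 (SD, n = 18) in DMSO wells and 2546 ± 98.7, 2650 ± 539 and 2600 ± 164 (SD, n = 3 each) with 100, 1000 and 10000 nM triptolide, which is 1.55, 1.61 and 1.58 times the DMSO mean. In a test of each gene by edgeR's quasi-likelihood method, a gene was called with an adjusted p-value (Benjamini-Hochberg, over all genes tested) under 0.05 and a change of more than 1 in either direction on the log2 scale. At 100 nM 19 of 31 collagens tested were higher and 0 were lower, where 11.4% and 20.9% of all genes tested were called in these directions. At 1000 nM 21 of 34 were higher and 1 was lower, against 13.9% and 30.4% of all genes, and at 10000 nM 25 of 32 were higher and 1 was lower, against 16.2% and 30.2%. All 22 members with at least 1 TPM in DMSO had a positive log2(Fold Change) at the 3 doses, and 15, 18 and 20 of them were called higher, but this direction turned when libraries were scaled to the 13 mitochondrially encoded mRNAs.

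The scaling decides what a rise means under triptolide. The main scaling (TMM) sets the bulk of genes to no change, so a higher collagen is higher relative to other mRNAs of the same well, not per cell. Scaled to mitochondrial mRNAs, the log2(Fold Change) of all genes had a median of -1.81, -2.68 and -2.92 at the 3 doses, and that of the collagens -0.47, -1.11 and -1.41, with 0, 1 and 1 higher and 3, 19 and 28 lower. With library sizes alone 8, 13 and 10 were higher and 0, 2 and 2 lower, where all genes had medians of -0.5, -0.67 and -0.7. Shares of all genes called on these other scales are not given here or below, so such counts have no background beside them. The distance between collagens and all genes was 1.34, 1.57 and 1.51 on the mitochondrial scale. On the main scale the medians were 1.11 against -0.16, 1.35 against -0.21 and 1.38 against -0.17. Every statement below that a collagen was higher with triptolide is relative to the bulk of genes in this sense. For the count of 0 lower at 100 nM, DESeq2 also gave 0, and 25 collagens had an unadjusted p under 0.05 in either direction, all 25 of which were higher at an adjusted p under 0.05. The count of lower collagens was small and moved with single libraries, to 1 at 100 nM without replicate 1, to 2 at 1000 nM without replicate 1 or replicate 3, and to 0 at 10000 nM without replicate 2 or replicate 3.

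Homoharringtonine gave a divided picture, with most of the collagens of at least 1 TPM lower, several scarce ones higher, and the abundant COL12A1 and COL6A2 not called at any dose. The summed collagen TPM was 902.7 ± 123, 663 ± 64.3 and 561.3 ± 24.5 (SD, n = 3 each) at 100, 1000 and 10000 nM, or 0.549, 0.404 and 0.342 times the DMSO mean, and all 9 wells lay below the lowest DMSO well (1232). At 100 nM 13 of 32 collagens tested fell and 5 rose, where 19.3% and 15.6% of all genes tested were called. At 1000 nM 16 of 34 fell and 6 rose, against 20.9% and 21.5%, and at 10000 nM 18 of 34 fell and 6 rose, against 23.4% and 23.6%. The share that rose was thus near or below the background at each dose. Of the 22 members with at least 1 TPM, 12, 14 and 15 fell and 2, 0 and 0 rose. On the mitochondrial scale 14, 16 and 21 fell and 4, 6 and 6 rose, and the median of all genes was no lower than -0.32 there.

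The number tested is not the whole set. In the comparisons with DMSO 29 members passed the filter on low counts every time, and 8 never did: COL4A3, COL6A5, COL6A6, COL9A1, COL19A1, COL23A1, COL24A1 and COL25A1. The other 7 passed in some comparisons, and COL10A1, COL28A1, COL2A1 and COL21A1 entered through the wells in which they were high, so that their calls follow partly from the filter. The comparisons also share the 18 DMSO wells.

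**Figure D2:**
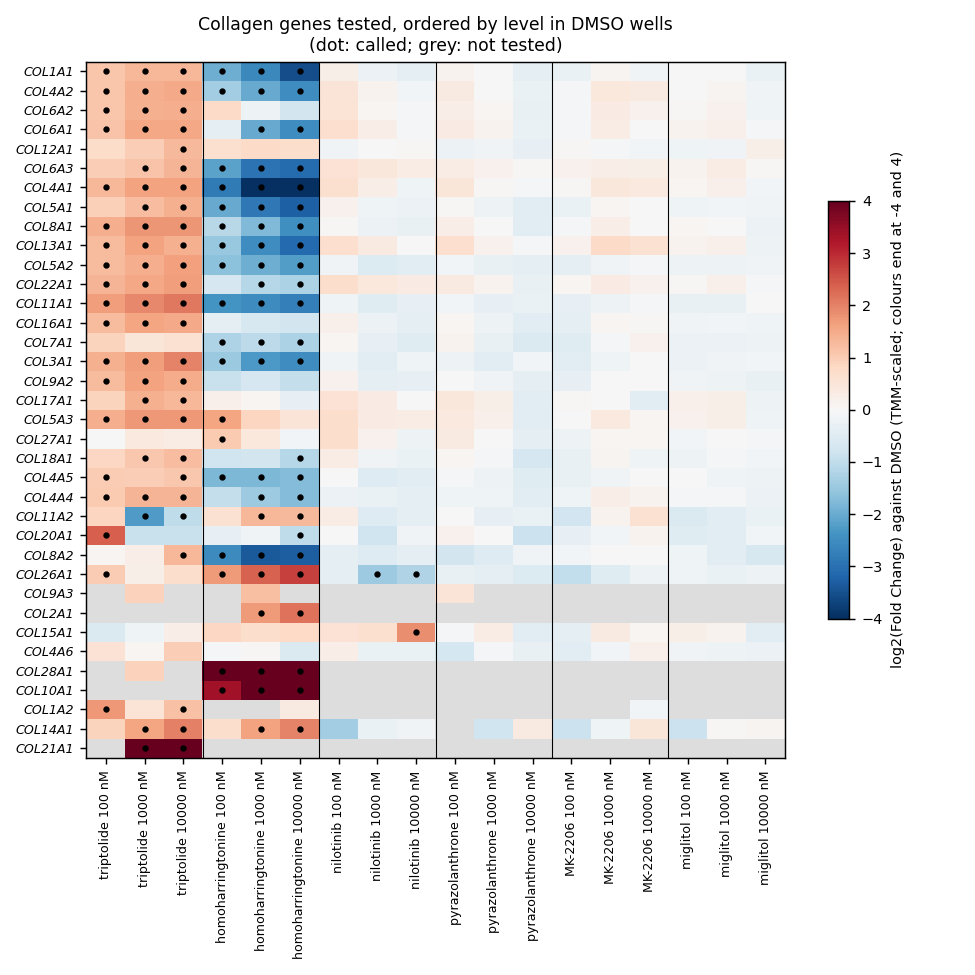
Log2(Fold Change) against DMSO of each collagen gene tested (rows) in each compound and dose (columns), with colors that end at -4 and 4 and grey cells for genes not tested and dots for genes called. The triptolide columns are mostly positive relative to the bulk of genes and turn negative when scaled to mitochondrial mRNAs, the homoharringtonine columns hold both directions, and the other 4 compounds hold 3 calls, all with nilotinib, in COL26A1 and COL15A1.

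Among the fibrillar collagens, COL1A1 spanned the widest range of levels. It lay between 1360 and 2440 CPM (counts scaled to library size, with no correction for length) in DMSO wells with a median of 1780, and at 4790, 4450 and 4890 CPM with 10000 nM triptolide. With homoharringtonine it was 389, 439 and 567 CPM at 100 nM, 388, 269 and 260 at 1000 nM, and 157, 152 and 166 at 10000 nM. Treated wells of both compounds were thus outside the DMSO range on opposite sides. The log2(Fold Change) was 1.12, 1.33 and 1.32 (SE 0.122 at the top dose, adjusted p = 6.4e-10) with triptolide and -1.96, -2.58 and -3.56 (SE 0.172, adjusted p = 4.3e-15) with homoharringtonine. COL1A2 could hardly be followed. It was 0 to 0.315 CPM in DMSO wells and 0.356, 0.436 and 0.198 with 10000 nM triptolide, where its log2(Fold Change) of 1.18 (SE 0.466, adjusted p = 0.027) was called and groups overlapped, and without replicate 2 the value was 0.91 and the call was lost.

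Type V collagen showed that chains of the same family need not move together. COL5A1 was 124 to 252 CPM in DMSO wells with a median of 175, 517, 447 and 533 with 10000 nM triptolide, and 18.5, 18.9 and 19.7 with 10000 nM homoharringtonine, where it fell by 3.28 on the log2 scale (SE 0.217, adjusted p = 1.6e-12). COL5A2, its usual partner, fell by 2.24 at that dose, to 16.7, 15.5 and 17.1 CPM from 63.2 to 109 in DMSO wells. COL5A3, the chain of a tissue-restricted form of type V, went the other way. From 17.6 to 30.2 CPM in DMSO wells it stood at 61.4, 62.2 and 91.3 with 100 nM homoharringtonine, 52.3, 39.2 and 39.4 with 1000 nM, and 32.1, 33.6 and 38.1 with 10000 nM. Every well was above the DMSO range, and the value was called at the lowest dose (log2(Fold Change) 1.59, SE 0.134, adjusted p = 2.1e-10), with 0.86 and 0.50 at the higher doses below the fold limit. With triptolide COL5A3 was higher at all 3 doses, by 1.72 at 10000 nM (SE 0.117, adjusted p = 2.1e-12).

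The other fibrillar genes included the pair with the largest triptolide values among members of at least 1 TPM. COL11A1, a chain of the cartilage collagen type XI, was 27.3 to 57.8 CPM in DMSO wells, 159, 138 and 165 with 10000 nM triptolide and 5.37, 4.72 and 5.82 with 10000 nM homoharringtonine. COL3A1, the collagen of soft and elastic tissue, was 22.0 to 38.2, then 131, 117 and 111, and 5.09, 5.25 and 5.71 CPM in the same groups. Their log2(Fold Change) at 10000 nM was 2.10 and 1.98 with triptolide and -2.74 and -2.49 with homoharringtonine. COL27A1, a fibrillar collagen of cartilage growth, was higher only at the lowest dose of homoharringtonine among the 6 comparisons, with 24.1, 28.4 and 35.9 CPM against 8.99 to 23.9 (log2(Fold Change) 1.06, SE 0.23, adjusted p = 0.0003), and its other values lay between -0.11 and 0.43. COL11A2, the other type XI chain, was the exception under the higher doses of triptolide. At 100 nM it was 3.55 and 3.19 CPM in the deeper wells and 0 in the shallow one, with a positive value that was not called (log2(Fold Change) 0.87, SE 0.456, adjusted p = 0.11). It was 0, 0.233 and 0.607 CPM at 1000 nM, below every DMSO well (0.786 to 8.76, log2(Fold Change) -2.26, SE 0.62, adjusted p = 0.0025), and 0.83, 0.944 and 1.03 at 10000 nM, where the call (log2(Fold Change) -1.01, SE 0.454, adjusted p = 0.049) was lost without the shallow libraries at -0.98. With homoharringtonine it rose by 1.32 and 1.29 at the 2 higher doses, to 4.37, 4.51 and 4.80 CPM at 10000 nM, within the DMSO range that the shallow replicate 10 extends from 4.21 to 8.76.

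The basement membrane genes COL4A1 (ENSG00000187498, chromosome 13 from 110148963 to 110307157) and COL4A2 (ENSG00000134871, chromosome 13 from 110305812 to 110513209) are transcribed away from each other. Their GENCODE spans overlap by 1346 bases on opposite strands, and whether the counting used strand is not given in the sources used here. The 126 bases between their RefSeq start sites (GRCh38.p14, chr13:110307158-110307283, plus strand) are shown because both genes start beside them, with CCAAT and GGGCGG in capitals.
COL4A1-COL4A2: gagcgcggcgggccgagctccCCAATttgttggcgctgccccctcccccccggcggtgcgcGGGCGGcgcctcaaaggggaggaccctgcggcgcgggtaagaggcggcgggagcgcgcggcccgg
COL4A1 had the largest fall of any collagen in any comparison with DMSO. It was 300 to 483 CPM in DMSO wells with a median of 367, and with homoharringtonine 45.9, 51.1 and 61.8 at 100 nM, 21.7, 16.8 and 15.8 at 1000 nM, and 9.74, 9.47 and 10.2 at 10000 nM. The doses did not overlap with each other or with DMSO. The log2(Fold Change) was -2.82, -4.39 and -5.30 (SE 0.211, adjusted p = 1.4e-16), the last of which is a level 39.3 times lower. COL4A2 was 782 to 1370 CPM in DMSO wells and 328, 384 and 502, then 317, 247 and 234, and then 200, 187 and 211 CPM at the same doses, so it fell less, by 1.40, 2.02 and 2.47 on the log2 scale (SE 0.205 and adjusted p = 1.1e-10 at 10000 nM).

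With triptolide the pair moved by similar amounts, upward relative to the bulk of genes and downward on the mitochondrial scale (-1.17 and -1.28). COL4A1 was 1210, 1080 and 1290 CPM and COL4A2 3260, 2800 and 3450 CPM at 10000 nM, every well above the DMSO range, with log2(Fold Change) 1.62 (SE 0.122, adjusted p = 1.5e-11) and 1.51 (SE 0.147, adjusted p = 1.6e-09). Of the other type IV genes, which serve kidney, eye and cochlear membranes, COL4A5 was 5.01 to 8.81 CPM in DMSO wells and 2.03, 1.84 and 2.20 with 10000 nM homoharringtonine, a fall of 1.75 that was nearly the same at the lower doses (1.81 and 1.80). Its neighbor COL4A6, whose RefSeq start lies 379 bases away, had a median of 0.475 CPM in DMSO wells and was not called with either compound (log2(Fold Change) 0.98 with triptolide and -0.59 with homoharringtonine at 10000 nM). COL4A4 was 1.83, 1.39 and 1.58 CPM with 10000 nM homoharringtonine, below every DMSO well (3.72 to 24.5, or to 6.21 without the shallow library), and it fell by 1.46 and 1.72 at the 2 higher doses. COL4A3, which starts 418 bases from COL4A4, had a median of 0.0254 CPM in DMSO wells and was too low to test.

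Type VI collagen is assembled from the products of COL6A1, COL6A2 and COL6A3, and these genes parted under homoharringtonine. COL6A3 was 576 to 799 CPM in DMSO wells and fell at once to 127, 149 and 159 at 100 nM, with 92.2, 86.3 and 74.4 at 1000 nM and 78.6, 78.5 and 78.4 at 10000 nM. COL6A1 was 330 to 538 CPM in DMSO wells, 301, 316 and 429 at 100 nM, 133, 104 and 94.5 at 1000 nM, and 83.9, 82.7 and 75.5 at 10000 nM. COL6A2 was 328 to 613 CPM in DMSO wells, 677, 716 and 996 at 100 nM, 524, 367 and 349 at 1000 nM, and 304, 274 and 298 at 10000 nM. At 100 nM COL6A3 therefore lay below the DMSO range, COL6A1 at its lower end with replicates on both sides of its edge, and COL6A2 above it. Their log2(Fold Change) at this dose was -2.15, -0.35 and 0.77, of which only that of COL6A3 was called (SE 0.125, adjusted p = 2.1e-13). At 10000 nM it was -3.08 (SE 0.125), -2.50 (SE 0.139) and -0.73 (SE 0.16), with adjusted p-values of 2.1e-16, 5.9e-14 and 0.00028, and the value of COL6A2 was inside the fold limit. With 10000 nM triptolide all 3 were higher by similar amounts, 1.35 for COL6A3, 1.55 for COL6A1 and 1.45 for COL6A2, with every well above the DMSO range, and lower on the mitochondrial scale (-1.43, -1.25 and -1.35).

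COL12A1, a long fibril-associated collagen, was the member above 100 TPM whose wells stayed above DMSO with every dose of homoharringtonine. It was 448 to 798 CPM in DMSO wells with a median of 606, and 978, 952 and 958, then 881, 1080 and 1200, and then 1000, 979 and 1150 CPM at the 3 doses. All 9 wells were above the DMSO range, and the log2(Fold Change) of 0.64, 0.76 and 0.71 (adjusted p = 5.9e-06 at 10000 nM) stayed under the fold limit. With triptolide it was 1670, 1470 and 1570 CPM at 10000 nM, higher by 1.30 (SE 0.104, adjusted p = 4.9e-11). The other fibril-associated members differed. COL22A1, a collagen of tissue junctions, was 33.2 to 47.9 CPM in DMSO wells and fell by 1.13 and 1.26 at the 2 higher doses, to 16.4, 16.5 and 16.7 at 10000 nM, while COL16A1 (-0.72) and the cartilage gene COL9A2 (-0.96) were not called there. With triptolide these 3 were higher at all doses, by 1.68, 1.5 and 1.48 at 10000 nM.

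Among the transmembrane and short-chain collagens, COL13A1 was 18 to 38.5 CPM in DMSO wells, 68.9, 66.0 and 75.5 with 10000 nM triptolide and 3.16, 3.33 and 2.52 with 10000 nM homoharringtonine, a fall of 3.12 (SE 0.23, adjusted p = 1.2e-11). The skin anchoring gene COL17A1 was 27.2, 27.2 and 37.0 CPM with 10000 nM triptolide against 9.8 to 14.2 in DMSO wells (log2(Fold Change) 1.32), and its value with homoharringtonine, -0.32, was not called. COL8A1 was 42.5 to 59.4 CPM in DMSO wells, 172, 161 and 185 with triptolide and 9.19, 10.3 and 8.57 with homoharringtonine at 10000 nM, a difference of 1.75 and -2.44. The related COL8A2 was low, with 0.476 to 3.50 CPM in DMSO wells, and it fell with every dose of homoharringtonine, to 0.101, 0.0525 and 0.0895 CPM at 10000 nM. COL7A1, which anchors skin to its basement membrane, fell by 1.25, 1.06 and 1.27 with homoharringtonine, to 4.91, 3.91 and 5.44 CPM from 6.87 to 19.3, and its triptolide values of 0.90, 0.48 and 0.60 were under the fold limit. COL18A1, the source of the fragment endostatin, was 24.3, 20.5 and 23.8 CPM with 10000 nM triptolide and 5.27, 3.99 and 3.99 with 10000 nM homoharringtonine against 5.50 to 15.8 in DMSO wells (1.23 and -1.13). Part of it overlaps SLC19A1 on the opposite strand, which fell by 2.64, with the same limit on strand as for COL4A1 and COL4A2.

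**Figure D3:**
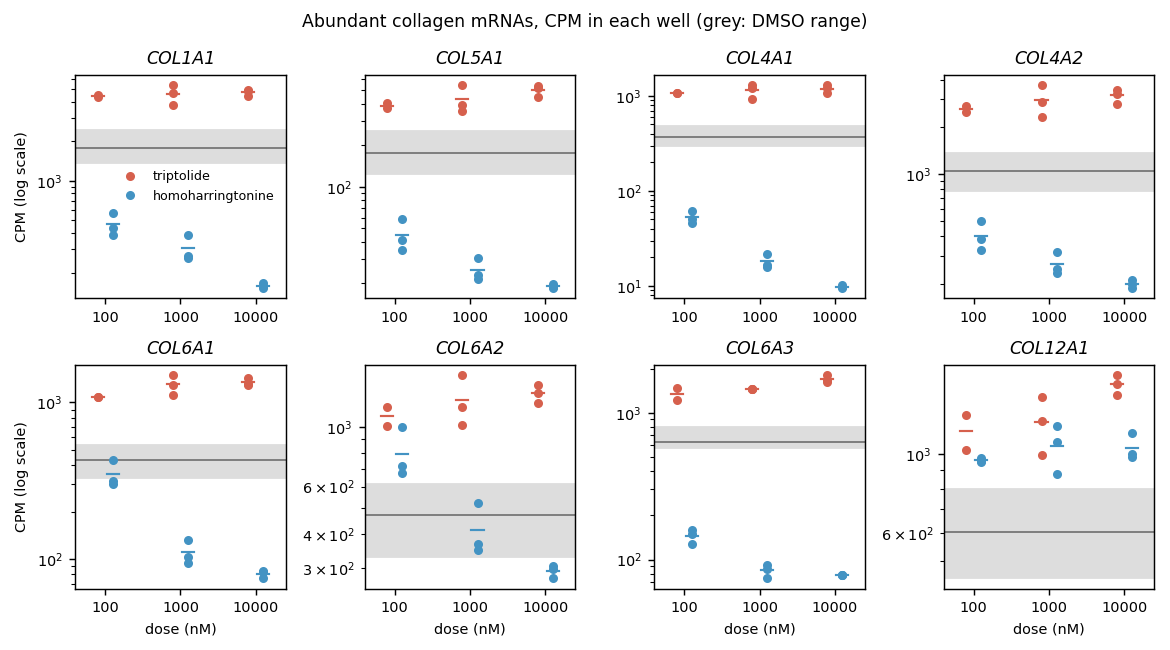
CPM of 8 abundant collagens in each triptolide and homoharringtonine well by dose, on log axes, with short lines for means, a grey line for the median of all DMSO wells, a band for the range of those of at least 10 mil counts, and the shallowest triptolide well left out. COL1A1 sits above the DMSO band with triptolide on this scale, where values are relative to the bulk of genes and would lie below DMSO on the mitochondrial scale, and below the band with homoharringtonine, while COL12A1 lies above it with both and COL6A2 crosses it with homoharringtonine dose.

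The collagens called higher at every dose of homoharringtonine were all under 1 TPM in DMSO wells. The more abundant COL12A1 and COL5A3 also lay above DMSO at every dose, but did not pass the fold limit at each. COL28A1 (ENSG00000215018, chromosome 7 from 7356203 to 7535873), a beaded collagen known from nerve, was 0 to 0.305 CPM in DMSO wells with a median of 0.118, and 3.79, 3.39 and 3.67 at 100 nM, 5.41, 5.03 and 4.42 at 1000 nM, and 3.76, 4.43 and 4.71 at 10000 nM. Every homoharringtonine well was above every DMSO well and held between 111 and 263 counts, where DMSO wells held 0 to 11. It rose 27.9-fold, 37.8-fold and 32.2-fold, a log2(Fold Change) of 4.80, 5.24 and 5.01 (SE 0.262, adjusted p = 1.9e-14). With triptolide it stayed at 0 to 0.465 CPM.

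COL26A1 (ENSG00000160963, chromosome 7 from 101362875 to 101559024), a short collagen-like secreted protein, rose with each dose. It was 0 to 1.63 CPM in DMSO wells with a median of 0.795, and 2.04, 2.68 and 3.62, then 5.46, 4.29 and 3.51, and then 6.18, 5.54 and 5.98 CPM with homoharringtonine. All 9 wells were above the DMSO range, and the log2(Fold Change) was 1.69, 2.35 and 2.74 (SE 0.197, adjusted p = 7.9e-12). COL10A1, the collagen of hypertrophic cartilage, was 0 to 0.227 CPM in DMSO wells apart from 1.75 in the shallow replicate 10, and 0.800, 0.763 and 0.841, then 1.48, 1.55 and 1.58, and then 2.41, 1.36 and 1.59 CPM with homoharringtonine. The log2(Fold Change) was 3.35, 4.28 and 4.48, on 25 to 120 counts per treated well. COL10A1 lies within NT5DC1 on the opposite strand, and NT5DC1 did not pass the test at 10000 nM (log2(Fold Change) 0.05, adjusted p = 0.7).

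Other low genes were chosen here after their values were seen. COL2A1, the main collagen of cartilage, was 0 to 0.315 CPM in DMSO wells and 0.664, 0.866 and 0.591 with 10000 nM homoharringtonine (log2(Fold Change) 2.17, adjusted p = 2.4e-06). COL14A1, a fibril-associated gene, was 0 to 0.310 CPM in DMSO wells and outside this range with both compounds at 10000 nM, at 0.751, 0.653 and 0.593 with triptolide and 0.644, 0.761 and 0.519 with homoharringtonine. COL21A1, a fibril-associated collagen of vessel walls, was higher with triptolide, at 2.25, 1.16 and 1.90 CPM (57, 32 and 48 counts) at 10000 nM and 2.06, 1.28 and 1.29 at 1000 nM, against 0 to 4 counts in DMSO wells. Its homoharringtonine wells were at 0 to 0.143 CPM, and its fitted log2(Fold Change) with triptolide, 5.19 and 5.38, depends on the few DMSO counts. COL20A1 was 7.95 and 4.74 CPM in the 2 deeper wells of 100 nM triptolide and 0 in the shallow one, against 0 to 2.17 in DMSO wells (log2(Fold Change) 2.39, adjusted p = 1.8e-07), and at the higher doses it was -0.90 and -0.88 without a call.

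**Figure D4:**
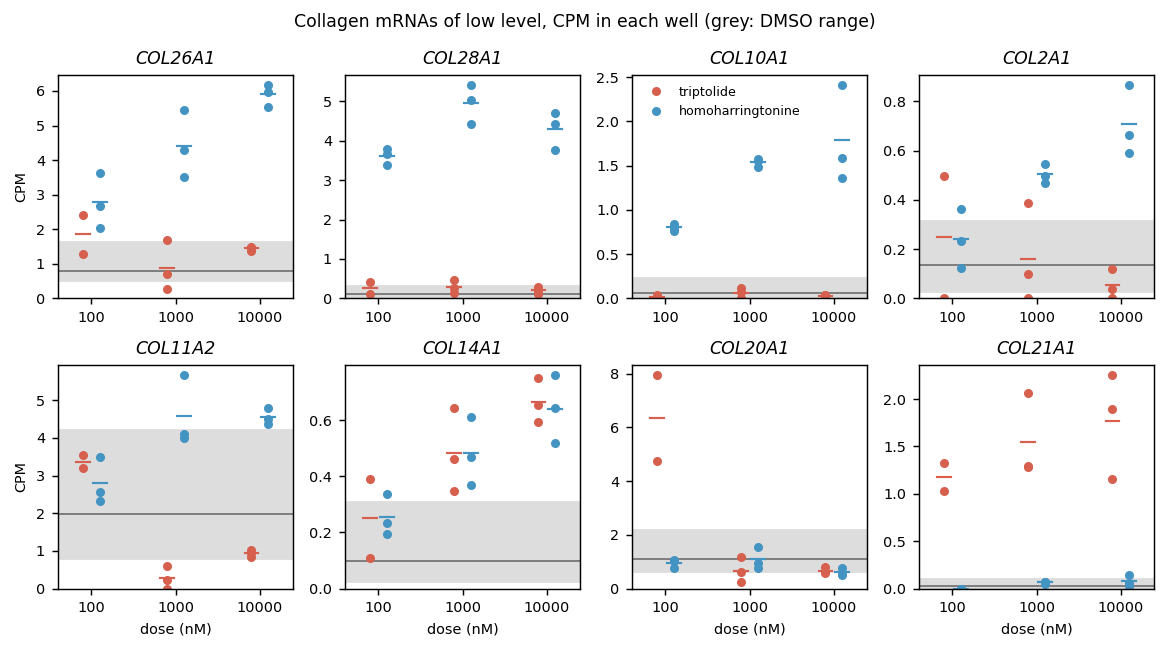
CPM of 8 scarce collagens in each triptolide and homoharringtonine well by dose, on linear axes, with short lines for means, a grey line for the median of all DMSO wells, a band for the range of those of at least 10 mil counts, and the shallowest triptolide well left out. COL28A1 reaches 3.39 to 5.41 CPM with homoharringtonine, and COL21A1 lies at 1.16 to 2.25 CPM with 10000 nM triptolide and at no more than 0.143 CPM with homoharringtonine.

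Triptolide and homoharringtonine were also compared with each other at matched doses, which does not use the DMSO wells. Of the collagens tested, 19 of 30 were higher with triptolide at 100 nM, 21 of 34 at 1000 nM and 24 of 34 at 10000 nM, where 20.5%, 22.6% and 30.2% of all genes were, and 3, 4 and 5 were lower, where 27.4%, 35.9% and 37.9% of all genes were. On mitochondrial scaling the counts were 12, 12 and 13 higher and 9, 14 and 11 lower, so higher collagens did not outnumber lower ones at 1000 nM there. The share of all genes called on that scale is not given here. Its medians were 0.43, -0.41 and -0.11 for the collagens and -1.75, -2.69 and -2.75 for all genes. The distance between them was 2.18, 2.28 and 2.64. On the main scale, without homoharringtonine replicate 1 at 100 nM, the count lower was 5. The median difference of the collagens was 2.09, 2.01 and 2.48 on the log2 scale, against -0.10, -0.31 and -0.17 for all genes.

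Among the collagens higher with triptolide, COL4A1 had the largest difference at 10000 nM, 7.0 (SE 0.0984, adjusted p = 6.3e-12), with 4.24 and 5.97 at the lower doses. At 10000 nM it was followed by COL1A1 (4.97), COL11A1 (4.92), COL5A1 (4.78), the scarce COL8A2 (4.73), COL13A1 (4.62), COL3A1 (4.56) and COL6A3 (4.51). Of the 22 members with at least 1 TPM only COL12A1 (0.66) and COL27A1 (0.49) were not called at this dose, and both had a positive value on the main scale. The 5 that were lower with triptolide were COL10A1 (-5.89), COL28A1 (-4.30), COL2A1 (-3.61), COL11A2 (-2.21) and COL26A1 (-1.95), which are all under 1 TPM in DMSO wells. COL5A3, higher with both compounds at 100 nM, differed between them by -0.08 at 100 nM (SE 0.197, 95% interval from -0.47 to 0.31) and by 1.31 at 10000 nM (SE 0.1, adjusted p = 3e-07).

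On the main scale, in a fit within the 9 wells of a compound, collagens followed the dose of homoharringtonine. Nearly none passed along that of triptolide. Along log10 dose within the 9 homoharringtonine wells, 16 of 34 collagens fell and 5 rose at an adjusted p under 0.05, against 22.9% and 21.1% of all genes tested. The steepest was COL4A1, which fell by 1.25 on the log2 scale per 10-fold dose (SE 0.0981, adjusted p = 9.5e-06), followed by COL6A1 (-1.09), COL1A1 and COL13A1 (both -0.81), COL6A2 (-0.76) and COL8A1 (-0.68). COL5A3 (-0.56) and COL27A1 (-0.60), which had been higher than DMSO at 100 nM, also fell along dose. COL2A1 (0.71), COL14A1 (0.61), COL10A1 (0.53), COL26A1 (0.51) and COL11A2 (0.32) rose. Other genes had no detectable slope, among them COL28A1 (0.09, SE 0.0974), COL4A5 (0.01, SE 0.115), COL7A1 (-0.02, SE 0.121) and COL12A1 (0.03, SE 0.0611), so their difference from DMSO was already present at 100 nM.

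Within the 9 triptolide wells only COL20A1 passed, of 31 collagens, with a slope of -1.65 (SE 0.315, adjusted p = 0.0023), and 0 rose, where 17.8% and 6.93% of all genes tested were called lower and higher. By unadjusted p under 0.05, 3 collagens passed. Of the 31 slopes 27 were positive and 4 negative, and the 9 wells include libraries under 10 mil. A fit over all wells, with the same scaling, had more collagens pass along triptolide dose, as given below. On the mitochondrial scale 20 collagens fell along triptolide dose, and 0 rose along that of homoharringtonine. The number that rose with homoharringtonine dose was 3 without replicate 3 at 100 nM or without replicate 2 at 10000 nM.

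Chains that join in the same molecule were compared as ratios within a well, which do not depend on how libraries are scaled. Ratios of TPM were tested against the DMSO wells for 5 pairs and 18 combinations of compound and dose with two-sided exact permutation tests, 90 in all, adjusted by Benjamini-Hochberg. The smallest p that 3 wells against 18 allow is 0.0015, and this use of ratios was chosen after seeing the data. The log2 ratio of COL4A1 to COL4A2 was -1.60 at the median of DMSO wells, between -1.72 and -1.47. With homoharringtonine it was -2.97, -3.04 and -3.12 at 100 nM, -4.04, -3.91 and -3.98 at 1000 nM, and -4.61, -4.45 and -4.51 at 10000 nM. It thus moved with each dose, by -1.44, -2.37 and -2.92 (exact permutation test, p = 0.0015, adjusted p = 0.01 at each dose). With 10000 nM triptolide it was -1.65, -1.58 and -1.59, within the DMSO range. With 100 nM triptolide it was -1.52, -1.17 and -1.35, a difference of 0.25 that passed (exact permutation test, p = 0.0045, adjusted p = 0.021), and without the libraries under 10 mil, of which the well at -1.17 is one, it was 0.16 and did not (exact permutation test, adjusted p = 0.11). With 1000 nM it was 0.15 (exact permutation test, adjusted p = 0.065), and 0.21 without those libraries (adjusted p = 0.046).

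The type VI ratios moved in their own order. COL6A3 to COL6A2 was -1.51 to -0.72 in DMSO wells and changed most at the lowest dose of homoharringtonine, to -3.93, -3.81 and -4.18, with -3.50, -3.33 and -3.45 at 10000 nM. COL6A1 to COL6A2 was -0.73 to -0.09 in DMSO wells, -1.37, -1.36 and -1.40 at 100 nM, and -2.24, -2.06 and -2.10 at 1000 nM. The ratio of COL6A3 to COL6A1 moved by -1.83, -0.89 and -0.61. Wells of the 3 doses lay outside the DMSO range for all of these ratios (exact permutation test, p = 0.0015, adjusted p = 0.01 each). COL5A1 to COL5A2 moved less, by -0.41, -0.66 and -0.77, with overlap of the groups and adjusted p-values of 0.12, 0.026 and 0.021 (exact permutation tests). With 10000 nM triptolide the differences of the 5 ratios lay between -0.27 and 0.16, and only that of COL6A3 to COL6A1 (-0.27) passed (exact permutation test, p = 0.003, adjusted p = 0.016). At 1000 nM this ratio also passed, at -0.36 (exact permutation test, p = 0.003, adjusted p = 0.016), but without the libraries under 10 mil it was -0.27 and did not (adjusted p = 0.084).

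**Figure D5:**
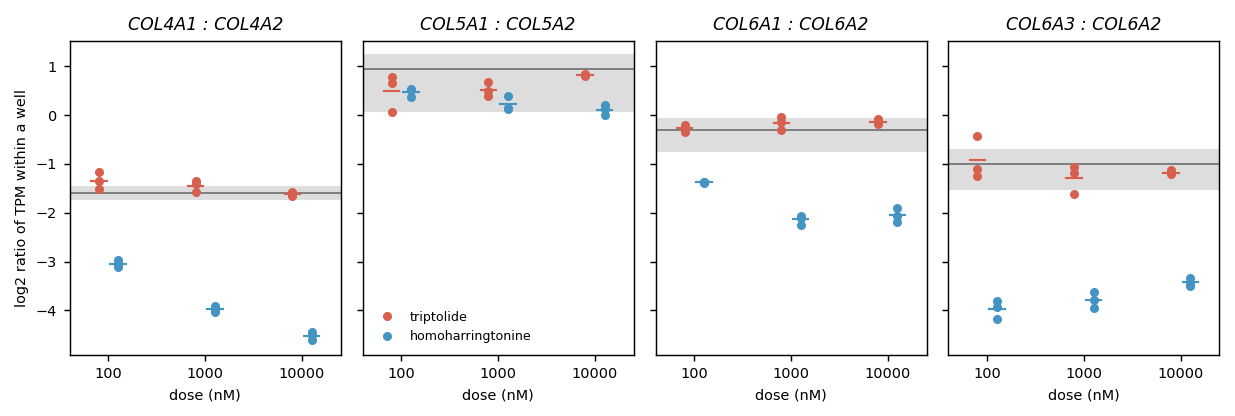
Log2 ratio of TPM within a well for 4 pairs of collagen chains, by dose of triptolide and homoharringtonine, with a point for each well, short lines for means, and a grey line and band for the median and range of DMSO wells. The ratio of COL4A1 to COL4A2 falls from -1.60 in DMSO to between -4.61 and -4.45 with 10000 nM homoharringtonine and stays within the DMSO range with 10000 nM triptolide.

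Genes that handle collagen were read from lists of known pathway members. With 10000 nM triptolide 21 of 26 genes for folding, modification and secretion were higher and 1 was lower relative to the bulk of genes. Of the other lists 12 of 13 genes for cleavage and cross-linking, 5 of 9 receptors, 7 of 9 for breakdown and 15 of 17 other matrix proteins were higher, and 1 receptor was lower, where 16.2% and 30.2% of all genes tested were called higher and lower. The list medians lay between 1.01 and 1.46, against -0.17 for all genes, and all 5 fall below 0 if the shift of -2.75 of the mitochondrial scale is applied to them. Examples were FKBP10 (1.58), a chaperone of procollagen, PLOD3 (1.46), a lysyl hydroxylase, PCOLCE (1.82), an enhancer of propeptide cleavage, DDR1 (1.63), a collagen receptor kinase, and MMP9 (1.94), a gelatinase. The exception in the secretion list was MIA2 (-1.13), which with homoharringtonine was higher (1.23).

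With 10000 nM homoharringtonine the same lists held more falls than rises, namely 10 falls and 3 rises of 26, 6 and 1 of 14, 4 and 1 of 9, 5 and 3 of 9, and 10 and 2 of 18, where 23.4% of all genes tested fell and 23.6% rose, with medians between -1.18 and -0.30 against -0.05 for all genes. The modifying enzymes P3H3 (-3.98) and COLGALT1 (-2.62), P3H4 (-3.85) of the same list and the collagen chaperone SERPINH1 (-2.53) fell. So did the cross-linking enzymes LOXL1 (-3.63) and LOXL2 (-2.89). ITGA2, a chain of a collagen-binding integrin, fell by 4.08 and the collagenase MMP14 by 4.18, while GP6, a platelet collagen receptor, rose by 1.81. Of the matrix proteins TNC (-3.57), HSPG2 (-3.01) and LAMC1 (-2.72) fell, and the laminin-binding NID1 rose by 1.59. P4HA1, a prolyl hydroxylase subunit, rose by 1.46 where P4HA2 fell by 1.73. These values came from the same wells and the same test as those of the collagens.

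With the other 4 compounds few collagens were called. With nilotinib 0 of 30 collagens were called at 100 nM, 1 at 1000 nM and 2 at 10000 nM, against 1.48%, 1.13% and 3.12% of all genes tested, and DESeq2 gave the same counts. On the mitochondrial scale the counts were 10, 0 and 13, where all genes had medians of 0.4, 0.11 and -0.68. That scale also moved the median of all genes to -0.51 with 10000 nM miglitol, where 0 genes were called on the main scale. At adjusted p under 0.05 alone, main scaling had 9, 1 and 2 collagens higher and 0, 2 and 1 lower with nilotinib. The share of all genes called is not given for these other counts. COL26A1 was 0.277, 0.411 and 0.273 CPM at 1000 nM and 0.318, 0.372 and 0.418 at 10000 nM, in the lower part of the DMSO range of 0 to 1.63, and it fell by 1.45 (SE 0.325, adjusted p = 0.0097) and 1.21 (SE 0.302, adjusted p = 0.0075). Its call was lost at 1000 nM without replicate 1 or without replicate 3, and the count at 10000 nM was 1 without replicate 1. COL15A1, a multiplexin of vessels and muscle, was 2.25, 2.51 and 2.18 CPM at 10000 nM, above every DMSO well (0 to 1.29), and rose by 1.87 (SE 0.241, adjusted p = 4.9e-06). COL26A1 thus fell with nilotinib and rose with homoharringtonine.

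With pyrazolanthrone 0 of 30 collagens were called at any dose by edgeR or DESeq2, against 0.923%, 0% and 1.16% of all genes, and 9, 2 and 14 had an unadjusted p under 0.05. At 10000 nM 28 of 30 had a negative value, with a median of -0.35 and a range from -0.86 to 0.37, and 3 were lower at an adjusted p under 0.05 without the fold limit. Negative values also prevailed at this dose with miglitol (27 of 30, median -0.16) and nilotinib (25 of 30, median -0.22), but not with MK-2206 (11 of 31, median 0.05). With MK-2206 0 were called, against 0.0054%, 0.286% and 0.732% of all genes, with 3, 8 and 5 at an unadjusted p under 0.05. With miglitol 0 were called, against 0%, 0% and 0%, with 0, 1 and 2 at an unadjusted p under 0.05, and DESeq2 gave 0 for both compounds. Among the ratios, COL6A3 to COL6A2 was -0.71, -0.65 and -0.72 with 10000 nM nilotinib, above the DMSO range at its upper edge (exact permutation test, p = 0.0015, adjusted p = 0.01). At 1000 nM it differed from DMSO by 0.42 (exact permutation test, adjusted p = 0.029) with overlap of the groups. COL6A3 to COL6A1 differed by 0.33 with 10000 nM nilotinib (exact permutation test, adjusted p = 0.029), and COL5A1 to COL5A2 by 0.42 and 0.39 with 1000 and 10000 nM nilotinib (exact permutation tests, adjusted p = 0.016 and 0.026). COL4A1 to COL4A2 differed by 0.18 with 10000 nM pyrazolanthrone (exact permutation test, adjusted p = 0.016). These differences also overlapped with DMSO wells, and no ratio passed with MK-2206 or miglitol.

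Sequence features that the rule did not use were set beside the changes as a description. The sequence upstream of the start site was read on both strands in 44 RefSeq windows of 250 bases, which belong to 32 members, some with several windows. GGGCGG occurred in 24 of these windows (54.5%), CCAAT in 12 (27.3%), TATAAA in 8 (18.2%) and TGANTCA in 1 (2.3%), where 42.6%, 32.0%, 10.7% and 6.6% of all 35116 windows held them. None of these motifs contains another. The members below are shown because they moved apart with homoharringtonine, with these motifs in capitals on either strand, on GRCh38.p14 and written along the strand of the gene. COL5A1 (plus strand) is chr9:134641553-134641802, COL5A3 (minus strand) chr19:10010505-10010754 and COL28A1 (minus strand) chr7:7535874-7536123.
COL5A1: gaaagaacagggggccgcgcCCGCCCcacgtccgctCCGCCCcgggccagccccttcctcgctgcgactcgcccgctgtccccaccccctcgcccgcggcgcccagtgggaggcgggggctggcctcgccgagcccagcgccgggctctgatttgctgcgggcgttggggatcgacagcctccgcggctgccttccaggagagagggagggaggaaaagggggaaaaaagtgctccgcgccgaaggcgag
COL5A3: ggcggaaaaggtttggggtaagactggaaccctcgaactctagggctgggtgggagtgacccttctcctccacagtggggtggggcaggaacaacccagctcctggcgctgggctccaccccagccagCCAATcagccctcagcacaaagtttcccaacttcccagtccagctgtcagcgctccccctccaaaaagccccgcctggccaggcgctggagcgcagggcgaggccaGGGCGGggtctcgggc
COL28A1: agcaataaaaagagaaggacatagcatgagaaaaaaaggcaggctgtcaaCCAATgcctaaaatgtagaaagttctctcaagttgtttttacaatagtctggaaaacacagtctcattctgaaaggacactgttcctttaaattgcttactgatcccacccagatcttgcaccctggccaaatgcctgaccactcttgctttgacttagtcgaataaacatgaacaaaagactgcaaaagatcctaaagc
The window of COL28A1 had 39.6% G and C, and those of COL5A1 and COL5A3 74.0% and 66.0%.

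Across members, the log2(Fold Change) with 10000 nM homoharringtonine was lower for genes with a higher level in DMSO wells, with Pearson's r of -0.68 over 34 members and of -0.40 over the 22 with at least 1 TPM. Both quantities use the same DMSO wells, and genes are not independent replicates. The 34 include the scarce COL28A1, COL10A1 and COL2A1, which passed the filter through the wells in which they were high. Values of r over 34 members thus follow partly from the filter, and COL21A1 entered the triptolide set in the same way. The share of glycine codons gave r of -0.28 with homoharringtonine and 0.09 with triptolide (n = 34 and 32), and GC content of the transcript gave -0.09 and -0.48. Over the 22 with at least 1 TPM, glycine codons gave -0.35 and 0.23 and GC content 0.26 and -0.32.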

How the data were processed

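Population RNA-seq libraries were prepared by the authors from poly A selected RNA of 24-well plates with a stranded kit, and the deposited tables hold for each well the RSEM expected count, TPM and FPKM of 60371 Ensembl genes. The submitters' processing notes name GRCh38, RSEM, HTSeq and DESeq2, and versions, annotation and the strand setting are not given in the sources used here. The middle dose is taken from the labels (1000 nM). Deposited TPM values were used for levels and ratios, deposited FPKM values as an alternative for levels, and expected counts, rounded to whole numbers, for tests.

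Genes were named with GENCODE release 44 (56104 identifiers matched). For each compound and dose, 3 wells were compared with all 18 DMSO wells by edgeR 4.0.16 (R 4.3.3), with TMM, filterByExpr with a smallest count of 10, a quasi-likelihood test on the whole table and Benjamini-Hochberg adjustment. CPM values are scaled by TMM over all wells and were compared within a gene. Ratios were tested with scipy 1.17.1. DESeq2 1.42.0, other scalings, filters and leave-outs were alternatives, and methods were tested on simulated data. Nothing says that wells came from separate cultures, so p-values measure the spread between wells, which may be technical. No pair of wells in a group held the same counts. Intervals and SEs come from the quasi-likelihood fit and use the spread between wells.

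Named were members with at least 1 TPM in DMSO, partner chains, members called in the same direction at all 3 doses of triptolide or homoharringtonine, the 3 largest rises and falls at 10000 nM, and any member called with another compound. From pathway lists up to 4 called genes with the largest change were named, with MIA2 and the P4HA pair added after their values were seen. Some genes that these rules name are not reported here. Members and lists were chosen with earlier results of these data known.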

Additional observations from a re-analysis of the deposited data

How the results depend on the processing

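Results under triptolide depended on the scaling, and those under homoharringtonine kept their direction in counts of collagens higher and lower. Counts in this section are given without the share of all genes called under the same setting. With library sizes only, triptolide gave 8, 13 and 10 collagens higher at 100, 1000 and 10000 nM, and 2 lower at each of the 2 higher doses. Scaled to mitochondrial mRNAs, it gave 0, 1 and 1 higher and 3, 19 and 28 lower, 20 fell along its dose, 0 rose along homoharringtonine dose, nilotinib gave 10, 0 and 13 calls, and triptolide against homoharringtonine 12, 12 and 13 higher and 9, 14 and 11 lower. On this scale 24 collagens called higher with 10000 nM triptolide reversed: COL1A1 -1.49, COL1A2 -1.50, COL3A1 -0.82, COL4A1 -1.17, COL4A2 -1.28, COL4A4 -1.46, COL4A5 -1.72, COL5A1 -1.38, COL5A2 -1.16, COL5A3 -1.08, COL6A1 -1.25, COL6A2 -1.35, COL6A3 -1.43, COL8A1 -1.06, COL8A2 -1.46, COL9A2 -1.32, COL11A1 -0.68, COL12A1 -1.45, COL13A1 -1.39, COL14A1 -0.63, COL16A1 -1.29, COL17A1 -1.48, COL18A1 -1.58 and COL22A1 -1.11. The cause was not tested. With at least 10 counts in every well fewer genes are tested: 0 collagens were higher with 100 nM triptolide, 0 lower at 1000 and 10000 nM, 1, 0 and 0 rose with homoharringtonine, 0 were called with 1000 or 10000 nM nilotinib, triptolide against homoharringtonine gave 8 higher and 0 lower at 100 nM, 0 lower at 1000 nM and 2 lower at 10000 nM, 0 fell along triptolide dose and 3 rose along homoharringtonine dose. The shallow DMSO well is in every comparison with DMSO, and the shallowest triptolide well in those of 100 nM, so counts of 0 follow partly from this filter. Of the collagens called at 10000 nM, 17 of 26 with triptolide and 14 of 24 with homoharringtonine were left to test. Without the libraries under 10 mil, 2 were lower with 1000 nM triptolide and 0 with 10000 nM. At 10000 nM triptolide 0 were lower with DESeq2, with no filter or in one fit over all wells, and 2 by adjusted p alone. With no filter 10 rose with 1000 nM homoharringtonine and 1 along triptolide dose, and in the fit over all wells 10 rose and 3 fell along triptolide dose. By adjusted p alone 8 rose with 100 nM homoharringtonine, nilotinib gave 9 and 3 at 100 and 1000 nM, pyrazolanthrone 2 and 3 at 100 and 10000 nM, and MK-2206 1 at 1000 nM.

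Replicate numbers are shared between groups, but the labels do not say that they pair wells. The mean correlation of deviations from the group was -0.056 where a compound well and a DMSO well had equal numbers and 0.018 where they did not. With the replicate block 10 collagens were higher with 100 nM triptolide, nilotinib gave 0 at 1000 nM and pyrazolanthrone 1 at 10000 nM.

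With each replicate left out, triptolide gave 14 to 22, 21 to 22 and 24 to 25 higher and 0 to 1, 1 to 2 and 0 to 1 lower at the 3 doses. Homoharringtonine gave 5, 6 and 6 higher throughout and 13 to 15, 15 to 16 and 17 to 19 lower, nilotinib 0, 0 to 1 and 1 to 2 calls, and the other 3 compounds 0. Triptolide against homoharringtonine gave 19 to 20, 21 to 23 and 24 to 25 higher and 2 to 5, 4 to 5 and 5 lower. Along dose, 0 to 1 rose and 1 to 2 fell with triptolide (1 rose without replicate 1 at 100 nM, and 2 fell without replicate 1 at 1000 nM), and 3 to 5 rose and 13 to 19 fell with homoharringtonine. The ratio of COL4A1 to COL4A2 with 10000 nM triptolide ranged from -0.01 to 0.02, and with homoharringtonine from -2.95 to -2.88.

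Depth limits the 22 members under 1 TPM. COL1A2 lost its triptolide call without replicate 1 or 2 and with library sizes only, COL18A1 lost its homoharringtonine call with a GC covariate (-0.75), and COL20A1, lower by 1.01 with 10000 nM homoharringtonine, lost its call with DESeq2.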
